A study of Mus musculus with 2 samples.

Results

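Cluster 8 was 1 of 11 cell clusters that the authors drew from single-cell RNA sequencing of mouse gastric tumors, and it was taken as every gene that their deposited table lists under that cluster. The table gave 4844 genes there, of the 18319 it names in all. The other clusters with strong myeloid genes, 4 and 10, had 5762 and 3466. The table ordered the genes of a cluster by a p-value and gave each a linear fold, which exceeded 1.5 throughout, so genes with smaller or falling values were not seen.

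The tumors grew from injected mouse dysplastic stem cells, called DP-DSC in the labels, in female mice of the NuJ strain. NuJ is an athymic nude strain, which lacks most T cells but keeps NK cells and myeloid cells. There were 2 libraries: 1 came from a cystic adenocarcinoma taken 10 weeks after the cells were injected, and the other from a tubular one taken at 13 weeks. Dissociated cells were captured in droplets on the inDrop platform. The table carries no tumor type, cell number or depth, so the tumors could not be compared and the depth behind each fold is unknown. With 1 library per tumor type there is no spread between animals to give. No value carries a test either, since setting a cluster against other cells by the genes that made it is no test. What the fold was taken against is not written in the table. Folds of different clusters need not have 1 common reference, and their references can share cells, so they are set side by side as each cluster's own value.

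A gene is called listed when the table gives it for a cluster, and raised when it had a fold of 2 or more and a deposited p no higher than 0.05. In cluster 8, 1166 genes were raised, 6.36% of all genes named, and 26.4% were listed. For cluster 4 the shares were 18.6% raised and 31.5% listed, and for cluster 10 they were 4.90% and 18.9%. Counts of list members stand beside these shares as a description only, because the clusters were drawn from the same expression values.

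Myeloid cells of a tumor come in several kinds that share many genes. Monocytes arrive from the blood and can become macrophages, which engulf and digest material in lysosomes. Dendritic cells take up antigen and present it to T cells on MHC molecules: type 1 dendritic cells carry Clec9a and Xcr1 and present on MHC class I, and type 2 cells carry Sirpa, Clec10a and often Cd209a and present on MHC class II.

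Cluster 8 combined these programs. Of its 5 proposed markers all were raised: by the authors' deposited table Clec9a, a receptor for the actin of dead cells, had a fold of 74.6, Flt3, the growth factor receptor of dendritic cell precursors, 42.5, the lectin Cd209a 7.23, lysozyme (Lyz2) 5.69 and the interferon regulator Irf7 12. Clec9a and Flt3 were listed in no other of the 11 clusters. Cluster 4 gave Cd209a a fold of 10.9 and Lyz2 one of 6.95 by the authors' deposited table, and cluster 10 gave Lyz2 2.43. The markers therefore split into a pair found in cluster 8 alone and others that it had in common with the neighbouring myeloid clusters. On GRCm38, Clec9a lies on chromosome 6 from 129408862 to 129424763 and Flt3 on chromosome 5 from 147330741 to 147400489.

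The place of a gene by p and the size of its fold picked out different genes. The 15 genes that come first by p were Lyz2, Cd74, H2-D1, Ctss, Srgn, H2-Ab1, Apoe, Ccl6, H2-Aa, Laptm5, Itgb2, Arg1, Csf1r, Actb and B2m, with folds by the authors' deposited table from 2.39 for Actb to 9.93 for the integrin chain Itgb2. Arg1, the arginase of suppressive and repair macrophages, was at 6.65 by the authors' deposited table and at 9.37 for cluster 4. Clec9a came at place 427 and Flt3 at place 229. Among the raised genes 118 had a fold of at least 20, at a median place of 511, and 1 of them, the iron regulator Hfe at 20.5, was among the first 100 by p. Apart from ribosomal, mitochondrial and predicted genes, the 15 largest folds by the authors' deposited table ran from 47.8 for Ficd to 169 for the ion exchanger Slc24a1. Clec9a, the chemokine receptor Cxcr6 and Ms4a4b were among them, but so were Nos1, Hoxb4 and the olfactory receptor Olfr270, which are no leukocyte markers. Genes of noncoding RNA made up 35.1% of the 114 genes of fold at least 20 that have a single position in the annotation, against 3.17% of the 189 raised genes with such a position among the first 200 by p. The share was 15.4% over all genes of the table and 15.3% over all genes raised in cluster 8.

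**Figure D1:**
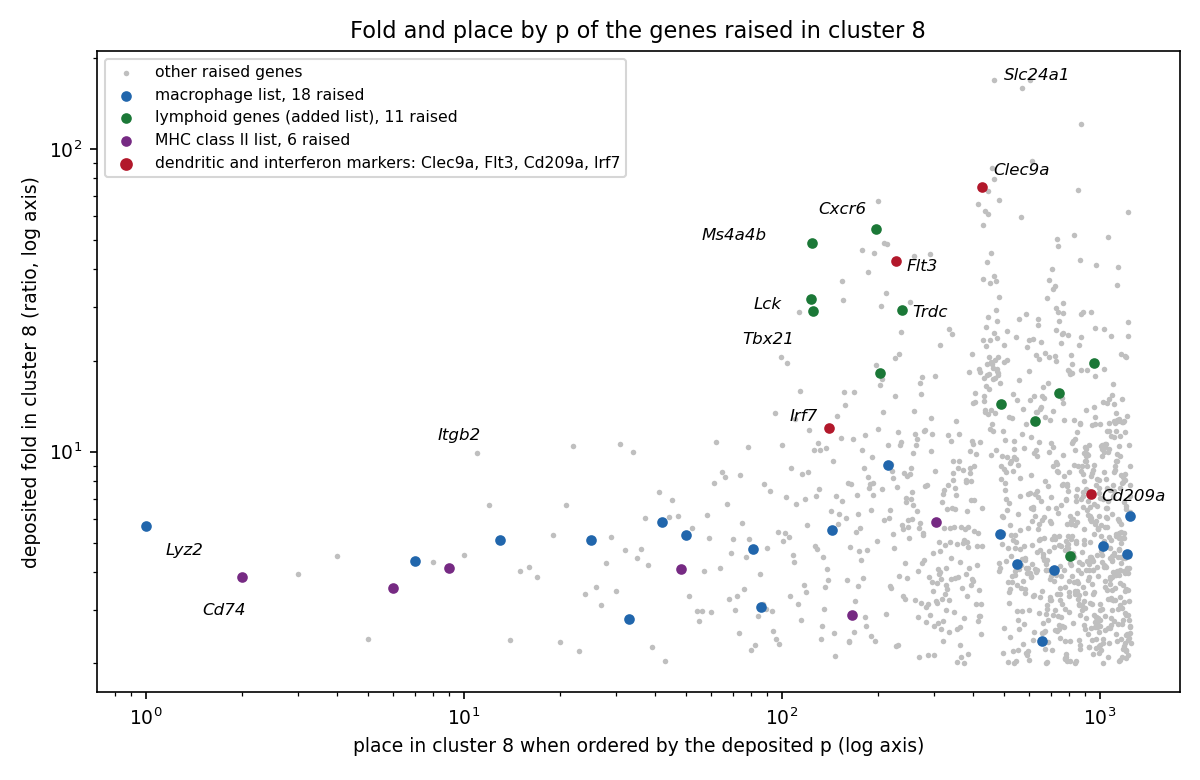
Each point is a gene raised in cluster 8, by its place when ordered by the deposited p (x, log axis) and its deposited fold (y, ratio, log axis). The 18 macrophage genes run from the first places to near the last at folds under 10. The 6 MHC class II genes, also under 10, start at place 2 (Cd74) and all have a deposited p of at most 0.01. Clec9a, Flt3 and the 11 lymphoid genes lie beyond place 100, all but 1 of the lymphoid genes above a fold of 10.

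Macrophage genes were nearly all raised. Of 20 macrophage genes all were listed in cluster 8 and 18 raised, at a median fold of 5.07 against 2.97 for all listed genes of the cluster. For clusters 4 and 10 the counts were 17 and 8. In the authors' deposited table the scavenger receptor Cd163 was highest among the raised members in cluster 8 at 9.06, followed by the Fc receptor Fcgr1 at 6.11 and the complement chain C1qb at 5.88. Lyve1 and Timd4, both genes of tissue-resident macrophages, had 5.47 and 5.04 by the authors' deposited table and were listed but not raised. Members differed in which of clusters 8 and 4 had the larger fold. Larger folds in cluster 4 by the authors' deposited table included that of Mertk, a receptor for dying cells (11.4 against 5.34 in cluster 8). Others were those of Cd68 (8.90 against 5.33), Fcgr1 (8.88 against 6.11) and C1qc (7.47 against 5.10). Larger folds in cluster 8 by the authors' deposited table included those of Cd163 (9.06 against 5.91) and Folr2 (4.88 against 2.496, which was not raised in cluster 4). Others were those of C1qb (5.88 against 4.30), Csf1r (5.12 against 3.57) and Aif1 (4.78 against 2.31). Fcgr1 and Folr2 lost their call in cluster 8 at a p of at most 0.01.

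Genes of lipid-loaded tumor macrophages were less complete. Of 14, 5 were raised in cluster 8, against 7 for cluster 4 and 1 for cluster 10. Trem2, a lipid-sensing receptor, had folds of 5.71 and 5.45 by the authors' deposited table, and the fatty acid transporter Cd36 6.68 and 11.4. Gpnmb, a glycoprotein of lipid-laden macrophages, reached 76.7 for cluster 4 by the authors' deposited table and was not listed in cluster 8. Members of the list thus differed in which cluster they marked.

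Monocyte genes had 9 of 16 members raised in cluster 8 and also 9 in cluster 4, but with different sizes. That share of 56.2% stands beside 6.36% of all genes for cluster 8 and 18.6% for cluster 4. In the authors' deposited table Ly6c2, the surface antigen of inflammatory monocytes, had folds of 13.1 for cluster 8, 2.94 for cluster 4 and 2.28 for cluster 10, the last not raised. The chemokine receptor Ccr2, which draws monocytes out of the marrow, had 10.4 against 6.48 by the authors' deposited table, and the chitinase-like Chil3 10.6 against 4.57. The opposite order held for the transglutaminase F13a1, with 3.68 for cluster 8 and 14.2 for cluster 4, and for the proteoglycan Vcan, with 3.45 and 8.41, by the authors' deposited table. Ifitm6 had 35.7 for cluster 4 by the authors' deposited table and was not listed in cluster 8. Adgre4, a receptor related to the macrophage marker Adgre1, had 39.1 by the authors' deposited table and was listed in no other cluster.

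Dendritic genes were present in part. Of 15 type 1 genes, 11 were listed and 7 raised in cluster 8, against 6 raised in cluster 4 and 2 in cluster 10. Besides Clec9a the raised members by the authors' deposited table were Cd8a at 23.3, Rab7b at 8.49, the transcription factor Irf8 at 7.21, the amidase Naaa at 4.66, the chemokine receptor Xcr1 at 3.5 and Wdfy4, which is needed for cross-presentation, at 2.82. Cd8a was listed in no other cluster, as were the lymphoid genes Lck and Tbx21 described below. Which cells of cluster 8 carried Cd8a is not known. For cluster 4 the authors' deposited table gave Irf8 6.83 and Wdfy4 11.1. The transcription factor Batf3 (2.69 by the authors' deposited table) was listed but not raised in cluster 8, and Cadm1, Tlr3 and Itgae were not listed there. Xcr1 and Wdfy4 were no longer raised at a deposited p of at most 0.01. Ly75, the endocytic receptor DEC-205, was at 10.5 by the authors' deposited table and listed in neither cluster 4 nor cluster 10, and it too lost its call at that p.

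Type 2 genes were fewer in cluster 8 than in cluster 4, with 3 of 12 raised against 8. The raised members in cluster 8 by the authors' deposited table were the cytokine gene Ltb at 20.4, Sirpa at 7.90 and Cd209a at 7.23. Which cells of the cluster carried Ltb is likewise not known. The lectin Clec10a had 1.54 for cluster 8, close to the smallest fold listed, against 10.5 for cluster 4 by the authors' deposited table. Cd209d and Tnip3, with 23.6 and 9.10 for cluster 4 by the authors' deposited table, were not listed in cluster 8. Cd209a was no longer raised in cluster 8 at a deposited p of at most 0.01. The pan-dendritic transcription factor Zbtb46 had 1.53 for cluster 8 against 2.25 for cluster 4 by the authors' deposited table, raised in neither.

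For mature dendritic cells, which move toward lymph nodes, the share raised was 6.25%, near the 6.36% of all genes, and clusters 4 and 10 had 5 and 4 members raised. Of 16 genes only the surface protein Cd83, at 4.01 by the authors' deposited table, was raised, and the homing receptor Ccr7, the actin bundler Fscn1 and the chemokine Ccl17 were not listed. The plasmacytoid list had 6 members named in the table, of which Irf7 and the tetherin gene Bst2, at 12 and 3.13 by the authors' deposited table, were raised. Both respond to interferon, and the interferon list holds both.

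Lymphoid genes appeared beside the myeloid ones. The gene Ms4a4b, expressed by T cells, was at 48.95 by the authors' deposited table, the kinase Lck at 31.9 and the transcription factor Tbx21 (T-bet) at 29.1, at places 124, 123 and 125 by p. None of these was listed in any other cluster. Cxcr6, a receptor that guides T, NK and innate lymphoid cells, was at 54.3 by the authors' deposited table, and Nkg7, a granule protein of cytotoxic cells, at 46.3. Nkg7 was also raised in cluster 10, at 2.23 by the authors' deposited table.

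A broader list of 50 lymphoid genes was put together after these values were seen, and the table names 35. In cluster 8, 11 were raised (31.4%, against 6.36% of all genes). Cluster 4 had 5 (14.3%, against 18.6%) and cluster 10 had 4 (11.4%, against 4.90%). The T cell receptor delta constant region Trdc was at 29.3 by the authors' deposited table, the interleukin receptor chain Il2rb at 19.6, the NK receptor Klre1 at 18.1, the chemokine receptor Cxcr3 at 14.4 and the adhesion molecule Cd2 at 12.7. Other members were not raised in cluster 8. Cd247 and Ets1, at 2.18 and 7.28 by the authors' deposited table, were listed there, and Bcl11b, Gata3, Cd28 and Ctla4 were not. The GIMAP family, small GTPases of lymphocytes whose genes lie together on chromosome 6, had 4 of 5 named members raised: Gimap3 at 42.3, Gimap8 at 32.2, Gimap6 at 19.5 and Gimap1 at 16.6 by the authors' deposited table. Il2rb was no longer raised at a p of at most 0.01. No GIMAP gene was listed in cluster 4 or cluster 10. The killer-cell lectin-like family had 4 of 14 raised in cluster 8, namely Klre1, Klra9, Klrb1b and Klra2, and 5 in cluster 4.

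A shorter list of T and NK genes, chosen before this broader one but likewise with earlier results known, had other counts. Of 9 members named in the table, 1 was raised in cluster 8, Nkg7, against 2 in cluster 4 and 5 in cluster 10. Cd3e and Cd4, with 25.9 and 111 for cluster 10 by the authors' deposited table, were not listed in cluster 8. The T cell receptor beta constant region Trbc1 (2.69) and the protease Gzma (5.54, both by the authors' deposited table) were listed there but not raised. Of 10 B cell and plasma cell genes the table names 1, and that gene, Ighm, was not raised in cluster 8. Of the macrophage list, which holds the marker Lyz2, 18 of 20 genes were raised in cluster 8 and 17 in cluster 4. Dendritic genes were raised in part, and their lists hold the markers Flt3, Clec9a and Cd209a. Of 11 genes common to dendritic cells 5 were raised in cluster 8 (45.5%, against 6.36% of all genes). In cluster 4, 6 of the 11 were raised (54.5%, against 18.6% of all genes). Zbtb46, Batf3 and Clec10a were not raised in cluster 8. The 5 markers were chosen with earlier results known. Neither they nor the lists that hold them test the label of dendritic and macrophage genes, which also leaves out the monocyte and lymphoid genes. How these groups of genes fall over single cells cannot be read from the table, and the part that doublets or mixed cells have in them was not tested.

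Markers of several other cell types were not listed in cluster 8. This held for 13 of 13 epithelial, 10 of 10 fibroblast, 7 of 7 endothelial, 6 of 6 mast cell and 6 of 6 erythroid genes named in the table. Genes of the G2/M phase were likewise not listed, in 15 of 15, and of 13 S phase genes 4 were listed and 0 raised. Neutrophil genes had 3 of 15 raised against 11 in cluster 10: the granule protein Ngp was at 11.7, the collagenase Mmp8 at 10.8 and the lectin Clec4d at 5.78 by the authors' deposited table, while S100a8, S100a9, Csf3r and Cxcr2 were not listed. Ngp was listed in no other cluster, cluster 10 included. Pan-leukocyte genes had 11 of 12 raised, with Itgb2 the highest.

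**Figure D2:**
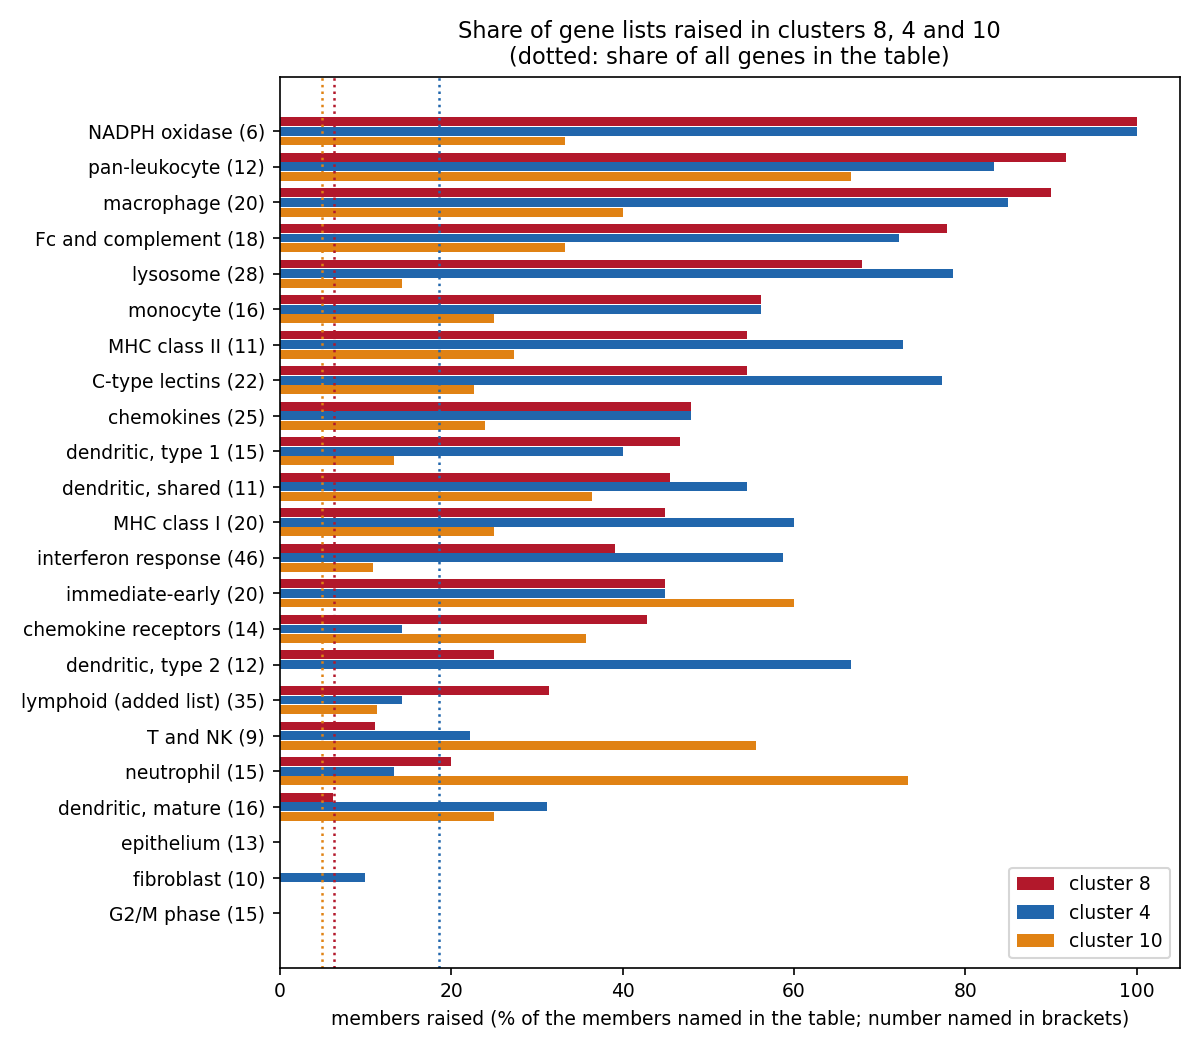
Bars give the percent of each list's members named in the table (number in brackets) that were raised in clusters 8, 4 and 10, and dotted lines give the share of all genes, 6.36%, 18.6% and 4.90%. Cluster 8 had 90% of the macrophage list raised and 0 epithelial, fibroblast and G2/M genes.

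**Figure D3:**
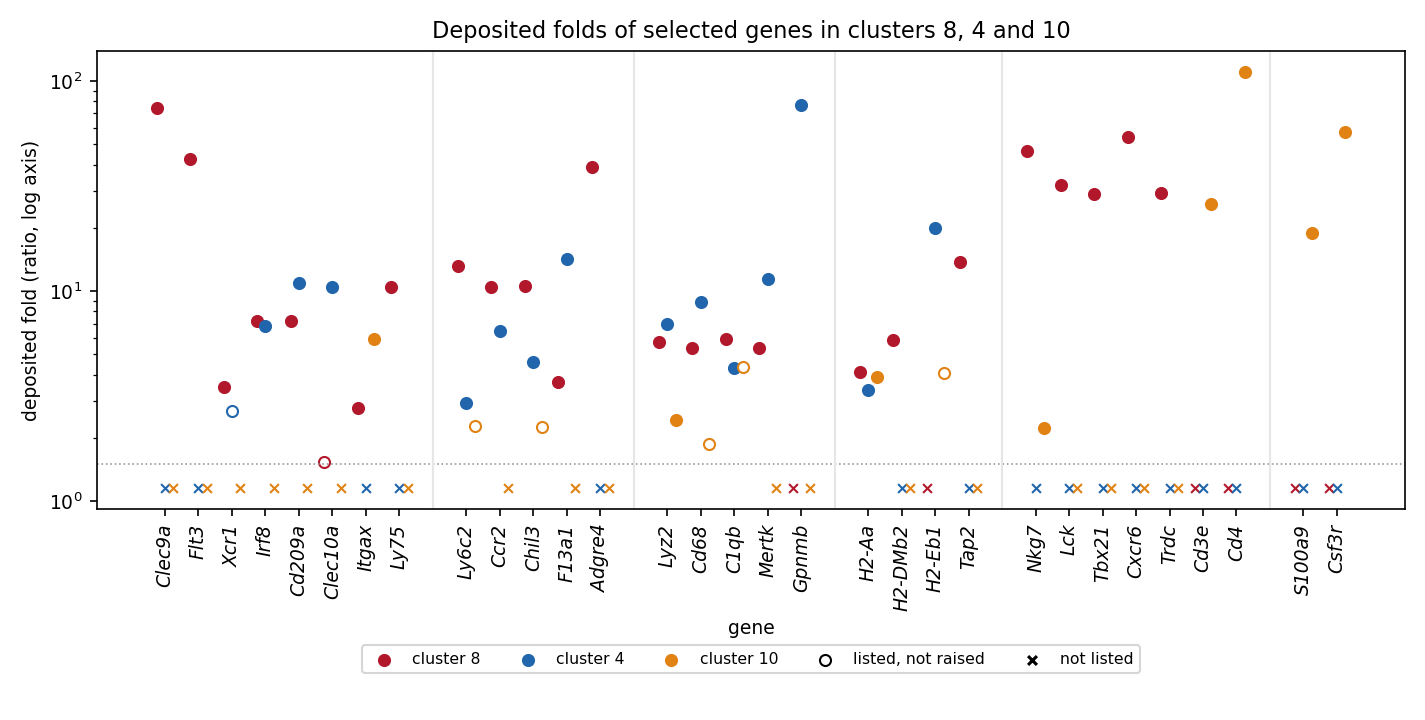
Points give the deposited fold (ratio, log axis) of selected genes in clusters 8, 4 and 10, open where listed but not raised, and crosses mark genes that are not listed, with the dotted line at a fold of 1.5. Clec9a, Flt3, Lck, Tbx21 and Cxcr6 have a point for cluster 8 alone, while Gpnmb and Clec10a are raised in cluster 4 and not in cluster 8.

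MHC class II binds peptides from engulfed material, with Cd74 as its chaperone and the H2-DM proteins loading the peptide. Of 11 class II genes, 6 were listed and all 6 raised in cluster 8, against 8 for cluster 4 and 3 for cluster 10. In the authors' deposited table H2-DMb2 was at 5.85, H2-Aa at 4.12, H2-DMb1 at 4.10, Cd74 at 3.85, H2-Ab1 at 3.56 and H2-DMa at 2.89. H2-DMb2 was listed in neither cluster 4 nor cluster 10. H2-Eb1, with 20 for cluster 4 and 4.06 for cluster 10 by the authors' deposited table, was not listed in cluster 8, and neither were H2-Eb2, H2-Ob or the master regulator Ciita.

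MHC class I genes, whose products show peptides from inside the cell, had 17 of 20 listed and 9 raised in cluster 8, against 12 raised in cluster 4. The peptide transporter subunit Tap2 was at 13.7 by the authors' deposited table, the immunoproteasome subunit Psmb8 at 8.65 and H2-M3 at 7.88. Tap2 was listed in neither cluster 4 nor cluster 10. Its partner subunit Tap1 had 3.66, 1.64 and 3.38 for clusters 8, 4 and 10 by the authors' deposited table, was raised in cluster 8 alone of these, and lost that call at a p of at most 0.01. The classical genes H2-D1 and H2-K1 and the light chain B2m lay close together over the 3 clusters by the authors' deposited table, between 2.90 and 4.04.

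Many of these genes are neighbours. On GRCm38 chromosome 17 from 33974659 to 34287823, 10 of 19 genes named in the table were raised in cluster 8: H2-K2, H2-K1, H2-DMa, H2-DMb2, H2-DMb1, Tap1, Psmb8, Tap2, H2-Ab1 and H2-Aa. The same stretch had 11 raised in cluster 4 and 4 in cluster 10. On chromosome 19 from 11321039 to 11604849, 8 of 10 genes were raised, 7 of them Ms4a genes from Ms4a7 to Ms4a6d, against 6 for cluster 4 and 2 for cluster 10. On chromosome 6 from 122847138 to 123275265, 6 of 9 were raised, namely C3ar1 and the lectins Clec4a3, Clec4b1, Clec4a2, Clec4n and Clec4d, against 8 for cluster 4 and 2 for cluster 10. On chromosome 1 from 173630917 to 173982744, 5 of 8 were raised, all interferon-inducible Ifi200 genes, against 5 for cluster 4 and 1 for cluster 10. These are some of the loci where at least 5 genes raised in cluster 8 followed each other within 200 kb. Another, on chromosome 1 from 170958617 to 171653035, had 9 of 31 raised, against 10 for cluster 4 and 2 for cluster 10. Each locus begins and ends at a gene raised in cluster 8, so a high count for that cluster follows from the rule. Several loci hold near-identical family members between which reads can be split, so single values there are uncertain.

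The promoters of the MHC genes are shown because a conserved Y box, the letters CCAAT or their reverse complement, is a known element of both MHC classes. The stretches below come from the RefSeq start-site windows on GRCm38.p6, each read 5′ to 3′ on the gene's strand, upstream of the start and with 1 Y box in capitals. Further matches in a stretch, as near the ends of those of H2-D1 and H2-Q7, are in lower case. H2-Aa is at chr17:34287842-34287896 (minus strand), H2-DMb1 at chr17:34153105-34153159 (plus), H2-DMb2 at chr17:34145134-34145188 (plus), H2-D1 at chr17:35262993-35263047 (plus), H2-Q7 at chr17:35439090-35439144 (plus) and B2m at chr2:122147609-122147663 (plus).
H2-Aa: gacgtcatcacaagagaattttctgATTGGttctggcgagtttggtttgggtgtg
H2-DMb1: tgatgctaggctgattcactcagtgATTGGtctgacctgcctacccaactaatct
H2-DMb2: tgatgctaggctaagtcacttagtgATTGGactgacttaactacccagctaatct
H2-D1: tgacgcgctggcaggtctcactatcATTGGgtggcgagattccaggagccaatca
H2-Q7: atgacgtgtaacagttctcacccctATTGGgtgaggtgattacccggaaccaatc
B2m: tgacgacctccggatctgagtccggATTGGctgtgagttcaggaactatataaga

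The H2-DMb1 and H2-DMb2 stretches were identical at 47 of 55 positions. Of the windows of raised class II genes 4 of 5 held the box, and of raised class I genes 8 of 9. Among all named members, raised or not, 8 of 9 class II windows and 13 of 19 class I windows held it. Over all windows of genes named in the table, each running from 250 bases before to 50 after the start, the share was 37.3%, and for all genes raised in cluster 8 it was 33.3%. The box is short and common, and a match is a description of the letters only.

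Interferon-response genes were raised in part. They are switched on through IRF and STAT factors that bind a repeated GAAA element. Of 46 named genes, 37 were listed and 18 raised in cluster 8 (39.1%, against 6.36% of all genes). Cluster 4 had 27 raised (58.7%, against 18.6%) and cluster 10 had 5 (10.9%, against 4.90%). In the authors' deposited table the nucleotide kinase Cmpk2 was at 32.5 and listed in no other cluster, Ifi209 at 11.97, Parp14 at 8.67, the antiviral Oas3 at 8.38, Ifi27l2a at 6.72 and the GTPase Gbp2 at 6.66. Irf7 had 12 for cluster 8 against 3.21 for cluster 4 by the authors' deposited table. The rest was uneven: Ifit1 at 4.64, Oas2 at 3.26 and Mx1 at 3.02 were listed but not raised by the authors' deposited table, and Usp18 and Ifit3 were not listed. Isg15, Oas1a, Parp14, Gbp3, Ddx58, Ifit2, Slfn5 and Ifi204 were among those that lost their call at a p of at most 0.01.

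The promoters of 6 raised interferon genes are shown because their windows hold the element itself, searched as GAAA, any 2 bases and GAAA on both strands. Capitals mark 1 match in each upstream stretch, and further matches, as in Isg15, Bst2 and Gbp3, are in lower case. Isg15 is at chr4:156200862-156200921 (minus strand), Oas3 at chr5:120777700-120777759 (minus), Gbp2 at chr3:142620579-142620638 (plus), Gbp3 at chr3:142559974-142560033 (plus), Igtp at chr11:58199497-58199555 (plus) and Bst2 at chr8:71537568-71537627 (minus).
Isg15: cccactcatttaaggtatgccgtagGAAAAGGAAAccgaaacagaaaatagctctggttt
Oas3: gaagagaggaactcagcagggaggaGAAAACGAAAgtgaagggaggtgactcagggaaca
Gbp2: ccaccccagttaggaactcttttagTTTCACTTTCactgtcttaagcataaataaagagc
Gbp3: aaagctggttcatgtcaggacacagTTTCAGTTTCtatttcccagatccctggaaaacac
Igtp: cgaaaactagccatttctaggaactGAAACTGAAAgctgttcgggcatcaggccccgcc
Bst2: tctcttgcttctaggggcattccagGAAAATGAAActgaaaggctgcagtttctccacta

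Of 16 windows of raised interferon genes 10 held the element, and 25 of the 40 windows of all named interferon genes did, the same share of 62.5%. It was in 5.90% of 1067 windows of all genes raised in cluster 8, in 3.90% for cluster 4, 5.92% for cluster 10 and 3.24% of 15731 windows of all named genes. A site like that of PU.1, the myeloid master factor made from Spi1, was searched as GAGGAAGT on both strands and was in 6.75% of the cluster 8 windows, 4.54% for cluster 4, 5.79% for cluster 10 and 3.18% of all windows. Spi1 itself had 5.83, 3.01 and 8.06 for clusters 8, 4 and 10 by the authors' deposited table. Windows were matched for 804 of the 1166 raised genes, and matches of the interferon and the PU.1 element shared bases in 0 of the 22 windows that held both. Matches of the Y box shared bases with the interferon element in 7 of 206 windows and with the PU.1 element in 2 of 171.

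**Figure D4:**
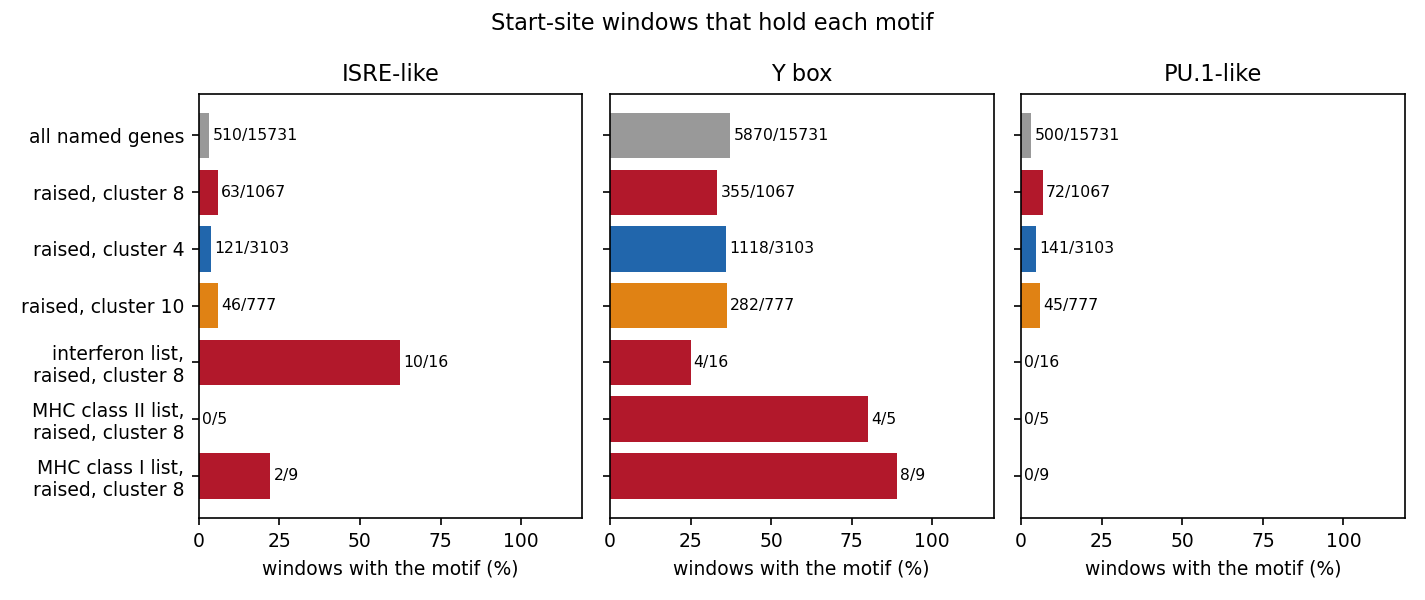
Bars give the percent of start-site windows that hold each motif, with the counts beside them, for all named genes, the genes raised in clusters 8, 4 and 10 and the raised members of 3 lists. The interferon element is in 62.5% of the interferon windows and the Y box in 80.0% and 88.9% of the MHC class II and class I windows.

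Receptors that sense and engulf were widely raised. Fc and complement genes had 14 of 18 raised in cluster 8 and 13 in cluster 4; besides Fcgr1, the inhibitory Fcgr2b was at 4.28 by the authors' deposited table and the integrin alpha chain Itgam at 5.24. Of 22 C-type lectins, 12 were raised in cluster 8 and 17 in cluster 4. Clec4b1 had 22.2 and Clec4a3 9.29 by the authors' deposited table, while Cd209b, with 51.3 for cluster 4, was not listed in cluster 8. Pattern receptors, which detect microbial molecules, had 9 of 22 raised against 15 in cluster 4. The cytosolic sensor Nod1 had 18.5 by the authors' deposited table and was listed in no other cluster, and its relative Nod2, with 13.4 for cluster 4, was not listed in cluster 8. Tlr2, a receptor for bacterial lipoproteins, had 1.992 for cluster 8 against 17.99 for cluster 4 by the authors' deposited table.

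The NADPH oxidase, which makes superoxide in the phagosome, had 6 of 6 genes raised in clusters 8 and 4, and 2 for cluster 10. In the authors' deposited table the subunits Ncf4 and Cyba were at 6.16 and 6.09. Of 28 lysosomal genes 19 were raised in cluster 8, against 22 for cluster 4 and 4 for cluster 10. The hexosaminidase Hexa at 7.84 and the acid lipase Lipa at 7.33 had the largest folds there by the authors' deposited table, and the protease Ctsl, with 3.15 for cluster 4, was not listed.

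Chemokines had 12 of 25 raised in each of clusters 8 and 4 (48.0%), where 6.36% and 18.6% of all genes were raised. The largest in cluster 8 were Cxcl10, which attracts cells bearing Cxcr3, at 13.5, Ccl12 at 11.7, the B cell attractant Cxcl13 at 8.63 and Ccl5 at 7.89 by the authors' deposited table. Ccl5 was not raised in cluster 10 and not listed in cluster 4. In contrast Cxcl9, with 25.4 for cluster 4 by the authors' deposited table, was not listed in cluster 8, and the platelet chemokine Pf4 had 2.90 against 17.9. Receptors had 6 of 14 raised in cluster 8 (42.9%) and 5 in cluster 10 (35.7%, against 4.90% of all genes). Cluster 4 had 2 raised, a share of 14.3% that is below its 18.6% of all genes. Those raised in cluster 8 included Cxcr6, Cxcr3, Ccr2, Xcr1 and the fractalkine receptor Cx3cr1, the last at 2.91 by the authors' deposited table.

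Cytokines had 3 of 21 raised in cluster 8, against 7 for cluster 4 and 6 for cluster 10. The 3 were Ltb, Tnfsf12 at 5.29 and oncostatin M (Osm) at 3.77 by the authors' deposited table, and Tnfsf12 lost its call at a p of at most 0.01. Il1b, Il1rn and Il23a, raised in cluster 10, were not listed. Among cytokine receptors 9 of 29 were raised, against 17 for cluster 4 and 9 for cluster 10. The common gamma chain Il2rg, with 11.3 for cluster 8 against 5.28 for cluster 4 by the authors' deposited table, lost its call in cluster 8 at a p of at most 0.01.

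Surface molecules that tune T cell activation had 8 of 17 raised in cluster 8, against 11 for cluster 4 and 4 for cluster 10. The inhibitory receptor Havcr2 (TIM-3) had 19.6 for cluster 8 against 2.01 for cluster 4 by the authors' deposited table, a ratio of 9.72. By the authors' deposited table Cd40, through which T cells activate presenting cells, had 7.34, the ligand Icosl 5.98 and the T cell costimulator Cd86 2.28. The calls of Cd40 and Icosl were lost at a p of at most 0.01. The checkpoint ligands Cd274 (PD-L1) and Pdcd1lg2 (PD-L2), with 2.74 and 5.94 for cluster 4 by the authors' deposited table, were not listed in cluster 8. For cluster 10 Cd274 had 19.1 by the authors' deposited table.

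Among lineage transcription factors 11 of 29 were raised in cluster 8, against 17 for cluster 4 and 8 for cluster 10. In the authors' deposited table Ikzf1 (Ikaros), a factor of all lymphoid and many myeloid cells, had 13.4 for cluster 8 against 3.67 for cluster 4. The same order held by the authors' deposited table for Runx3 (8.95 against 6.45) and for Nfil3 (6.57 against 3.97), which type 1 dendritic and NK cells need, and the opposite one for Zeb2 (4.78 against 8.27) and the myeloid factor Cebpa (1.86, not raised, against 13.2). Runx3 lost its call in cluster 8 at a p of at most 0.01 and at a Benjamini-Hochberg adjusted p of at most 0.05. Bcl11a, with 40.9 for cluster 4 by the authors' deposited table, and Id2, listed in cluster 10, were not listed in cluster 8. Immediate-early genes, which respond to stimulation and to tissue dissociation, had 9 of 20 raised in cluster 8, 9 in cluster 4 and 12 in cluster 10. Egr1, with 15.6 for cluster 10, and Jun were not listed in cluster 8, while Nr4a1 had 5.61 for cluster 8 against 2.83 for cluster 10 by the authors' deposited table.

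Signalling genes of leukocytes were put together as a list of 28 after they were seen near the top by p. Of these 19 were raised in cluster 8 and 20 in cluster 4. The adaptors Vav1 and Fyb had 9.61 and 8.81 for cluster 8 against 4.02 and 2.91 for cluster 4 by the authors' deposited table, and the kinase Lyn 6.93 against 2.94. The kinase Syk was not raised in cluster 8, with 1.73 against 4.01 for cluster 4 by the authors' deposited table.

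Among genes raised in both clusters 8 and 4, the ratio of the 2 folds ran from 0.133 to 10.1. The upper end held Grk3, a kinase that switches off G protein-coupled receptors, with 25.4 against 2.52 by the authors' deposited table, then Havcr2, Prr5l (22.5 against 2.35) and the UDP-sugar receptor P2ry14 (15.4 against 2.05). Hopx, a homeodomain protein, stood at the lower end with 2.78 against 20.9, and the neutrophil attractant Cxcl1 had 2.999 against 16.4 by the authors' deposited table. Against cluster 10 the largest ratio was that of Nkg7, at 20.8, and the next was 3.56, for the meiotic gene Sycp2. The inflammasome sensor Nlrp3 was on the low side, with 3.14 for cluster 8 against 20.2 for cluster 10 by the authors' deposited table, as was the selectin ligand Selplg, with 2.16 against 20.4. Because the folds need not have 1 common reference, these ratios order the genes and do not measure a difference in level.

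Among the first 200 genes by p, the raised genes that neither cluster 4 nor cluster 10 lists were the predicted genes Gm43621 (67.0 by the authors' deposited table) and Gm28373 (45.3), Cxcr6, Ms4a4b, Adgre4, Tnfaip8l2, Lck, Tbx21, Aldh1b1, Nlrc3, Plekha4 and Arpc4. Tnfaip8l2, a brake on T cell and Toll-like receptor signalling, had 36.6 by the authors' deposited table, and Nlrc3, another inhibitory regulator, 19.4. The mitochondrial dehydrogenase gene Aldh1b1 had 29.0, Plekha4 15.8 and the actin nucleator subunit Arpc4 2.78 by the authors' deposited table. Tnfaip8l2, Nlrc3 and Aldh1b1 were listed in cluster 8 alone of the 11 clusters, and Plekha4 and Arpc4 in 1 other cluster each.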

How the data were processed

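The data were single-cell RNA libraries from 2 tumors, grouped by tumor type from the labels, and the values were those of 1 table of the authors' own comparisons. The linear fold (a ratio) and the p-value of each gene and cluster are as the authors deposited them, per the file headers. Per the submitters' processing notes, STAR 2.7.3a, DESeq2 3.5 and Partek were used with the build mm10; their roles are not recorded there. Not given in the sources used here are aligner settings, cell and doublet filters, the clustering method, cluster sizes, depth, what the fold was taken against and which test gave the p. That p compares cells and not animals, so it served to order and filter genes and is not printed.

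Genes were counted as raised at a fold of at least 2 and a p of at most 0.05 with Python 3.11.15 and pandas 2.3.3, and the counting was tested on simulated data. The members and 35 gene lists were chosen with earlier results of these data known, and 2 further lists after the values were seen. Named were the 5 markers, list members, the 15 largest folds, the first 15 by p, genes among the first 200 by p that clusters 4 and 10 do not list, and the 10 ratios between clusters at each end; other genes were chosen after their values were seen. The 15 largest folds leave out ribosomal, mitochondrially encoded and predicted genes. Positions are 1-based, from GENCODE M21 (GRCm38, mm10), for the 17895 of 18319 symbols (97.7%) with a single position. Promoter windows are from RefSeq (GRCm38.p6); in 80.7% of 15534 windows the bases after the start matched a GENCODE transcript of the same symbol. Some list members are counted but not reported here by name.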

Additional observations from a re-analysis of the deposited data

How the results depend on the processing

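The number of genes raised in cluster 8 depended on the p. It was 1166 as reported, 729 at a p of at most 0.01, 683 with a Benjamini-Hochberg adjusted p of at most 0.05 and 3719 with no p threshold. The adjustment ran only over the genes listed for a cluster, which already had folds above 1.5. Whether the deposited p was itself adjusted is not given, so the adjusted p is a stricter cut and not an error rate. In cluster 4 the count of 3402 fell to 2220 at a fold threshold of 3, and in cluster 10 the count of 897 rose to 2907 with no p threshold. The number of list members raised in cluster 8, 183 over the lists other than the 2 added ones, stayed within 1.5 times, between 147 and 245. Of 211 list genes raised in cluster 8, the 2 added lists included, 131 kept the call under all 6 alternatives. A fold threshold of 1.5 and the lack of a p threshold only loosen the call, so no gene could lose it there. With the adjusted p 39 lost it, 37 at a p of at most 0.01 and 36 at a fold of 3. A further alternative, which asks for listing in at least 2 clusters, removed 12 listed in cluster 8 alone, among them Clec9a, Flt3, Lck, Tbx21 and Cxcr6. No replicate could be left out, since there is 1 library per tumor type, and the number of cells behind a fold, which limits its precision, is not given in the sources used here.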
